A study of Mus musculus with 6 samples.

Results

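Open chromatin was described around 10 genes of the circadian clock, Per1, Per2, Per3, Cry1, Cry2, Nr1d1, Nr1d2, Dbp, Arntl and Clock, in cortical astrocytes with and without the glucocorticoid receptor (GR). Every ATAC-seq peak whose summit, its point of highest coverage, lay in the body of one of these genes or within 20 kb of it was taken. This gave 1082 summits of the 1116429 in the 6 libraries. Of them, 803 fell at 145 of the 160874 sites compared across the genome, a site being the 200 bp to each side of a summit with a peak in at least 2 libraries. Another 38 lay at sites with too few libraries, and 241 lay beside a stronger site and were assigned to none.

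The nuclei came from primary visual cortex (V1) of mice at P21. All animals were GR fl/fl, so both conditions carried the floxed receptor gene, and all received an AAV2/5 vector at P0–P1 whose GfaABC1D promoter drives expression in astrocytes. In GR-con animals the vector encoded ΔCre, a catalytically inactive form of the recombinase, and in GR-KO animals Cre. Each stood beside EGFP-KASH, a tag of the nuclear envelope, and GFP-positive nuclei were sorted for the assay. The paper lists the mice as normal-reared, that is, not kept in darkness. There were 3 libraries for each condition, each from the tissue of 3 to 4 pooled mice, so the spread between libraries is that between pools. The study's methods place tissue collection for this work near the start of the dark phase, and a single time of day was sampled.

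In the circadian clock, the transcription factors CLOCK and BMAL1 (encoded by Clock and Arntl) bind E-box motifs and switch on the Per and Cry genes, whose proteins then inhibit CLOCK and BMAL1. Nr1d1 and Nr1d2 encode the nuclear receptors REV-ERBα and REV-ERBβ, which repress Arntl through RORE motifs, and Dbp encodes an output factor that acts at D-box motifs. Glucocorticoids follow a daily rhythm and act on clocks outside the central pacemaker, and GR, a ligand-activated transcription factor, binds DNA as a pair at a palindromic motif. ATAC-seq measures how open DNA is to a transposase, and says nothing by itself about transcription.

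The GR motif searched, on either strand, was GNACA, 3 bases, TGTNC. It was present in the 300 bp around the centre of 5 of the 145 sites (3.45%), 1 each near Per1, Per2, Per3, Cry1 and Nr1d1, and of 0.819% of all sites in the genome. Of these 5 sites, 4 are shown in the direction in which the clock gene is transcribed, with the motif match in capitals, because the Per2 and Nr1d1 sites passed the test described below and the Per1 and Cry1 sites, with a match of the same form, did not. The sequences were read from the GRCm38.p6 (mm10) assembly. At the Per2 site there were 2 matches, which share 4 bases.
Per2 intron, minus strand, chr1:91436328-91436627: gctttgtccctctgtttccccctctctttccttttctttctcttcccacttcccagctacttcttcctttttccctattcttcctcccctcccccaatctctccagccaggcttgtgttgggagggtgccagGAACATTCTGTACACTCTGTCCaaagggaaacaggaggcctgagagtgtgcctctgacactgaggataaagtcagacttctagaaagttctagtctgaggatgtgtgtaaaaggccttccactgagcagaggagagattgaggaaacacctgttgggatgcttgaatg
Thra intron near Nr1d1, minus strand, chr11:98754344-98754643: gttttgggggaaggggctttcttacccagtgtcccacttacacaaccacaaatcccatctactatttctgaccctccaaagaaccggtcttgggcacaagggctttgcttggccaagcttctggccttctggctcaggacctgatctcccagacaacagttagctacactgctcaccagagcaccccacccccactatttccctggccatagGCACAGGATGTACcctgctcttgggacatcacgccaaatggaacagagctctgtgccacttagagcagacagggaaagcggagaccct
Per1 intron, plus strand, chr11:69097010-69097309: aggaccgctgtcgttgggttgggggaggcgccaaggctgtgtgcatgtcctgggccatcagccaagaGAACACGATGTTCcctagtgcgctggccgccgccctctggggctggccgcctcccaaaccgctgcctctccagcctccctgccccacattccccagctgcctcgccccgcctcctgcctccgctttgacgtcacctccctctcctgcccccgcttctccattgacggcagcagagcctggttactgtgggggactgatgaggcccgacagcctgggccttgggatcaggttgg
Mterf2 start near Cry1, minus strand, chr10:85128028-85128216: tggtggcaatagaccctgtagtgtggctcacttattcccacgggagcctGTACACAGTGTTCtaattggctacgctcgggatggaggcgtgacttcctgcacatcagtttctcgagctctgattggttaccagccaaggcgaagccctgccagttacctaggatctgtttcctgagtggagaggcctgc

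Before the clock genes were examined, the libraries were checked against their labels. The lists held 179462 to 198929 peaks, and 9.35 to 10.1 of every 10000 peaks in a list lay near clock genes. At the site of smallest p among the 17 in the body of Nr3c1, the gene for GR, −log10 p was 126, 135 and 106 in GR-con and 20.8, 11.2 and 18.6 in GR-KO (limma on ranks, adjusted p = 1.42e-05). This site is not stated to lie in the deleted segment, so it shows a difference at the gene and does not measure the deletion. All 8 astrocyte marker promoters had a peak in every library, with a summed summit coverage of 39.4 to 43.4 times the library median in GR-con and 44.7 to 46.0 times in GR-KO. Peaks stood at 4 or 5 of 6 neuronal marker promoters (1.20 to 1.89 times the median summed in GR-con, 1.48 to 1.77 in GR-KO), at 2 or 3 of 6 for oligodendrocytes and their precursors (4.95 to 6.05 and 5.17 to 5.47), at 2 of 4 for microglia (0.880 to 1.24 and 1.07 to 1.67) and at 1 of 3 for endothelial cells (0.213 to 0.288 and 0.261 to 0.408). Slc17a7, Mog, Mag, Mobp, Cx3cr1, Aif1, Cldn5 and Pecam1 were at 0 in every library. The precursor markers Pdgfra and Cspg4, in contrast, had strong peaks in every library. Coverage at Pdgfra was 257, 240 and 214 reads in GR-con and 213, 202 and 184 in GR-KO. At Cspg4 it was 181, 199 and 182 against 170, 165 and 165. The astrocyte marker S100b had 197, 172 and 208 against 178, 172 and 165. The part of cell composition in the results below was not tested.

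Each library's list gave 2 strengths for a peak, the fold over the local background and the −log10 p of that enrichment. Both were ranked within a library and turned into normal scores, so a score difference of 1 equals 1 SD of the ranks of all sites, and GR-KO was compared with GR-con by limma with Benjamini-Hochberg adjustment over all 160874 sites. Summit coverage, the number of reads piled up at a summit, was solved from the 2 columns and is given to show the size of a difference. The sites per gene were 17 for Per1, 17 for Per2, 12 for Per3, 8 for Cry1, 18 for Cry2, 18 for Nr1d1, 10 for Nr1d2, 9 for Dbp, 28 for Arntl and 8 for Clock. By position, 65 sites were intronic, 37 upstream of the gene, 39 downstream and 4 in exons, and 54 were closer to the start of another gene than to that of the clock gene.

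Few sites near clock genes differed between GR-KO and GR-con, as was so for sites over the whole genome. By the rank of −log10 p, 2 of 145 sites (1.38%) were lower in GR-KO and 0 were higher at an adjusted p under 0.05, where 0.839% of all sites were lower and 0.764% higher. At such shares any 145 sites would hold few calls, so the counts say nothing particular of clock genes. By the rank of fold, 0 of 145 passed in either direction, against 0.127% of all sites lower and 0.0615% higher. At an unadjusted p under 0.05, 8 sites were lower and 11 higher by −log10 p (6.37% and 6.98% of all sites), and 4 lower and 4 higher by fold (6.02% and 6.11%). The median score difference over the 145 sites was 0.03 for −log10 p and 0.06 for fold, and 0.01 and 0.02 over all sites.

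**Figure D1:**
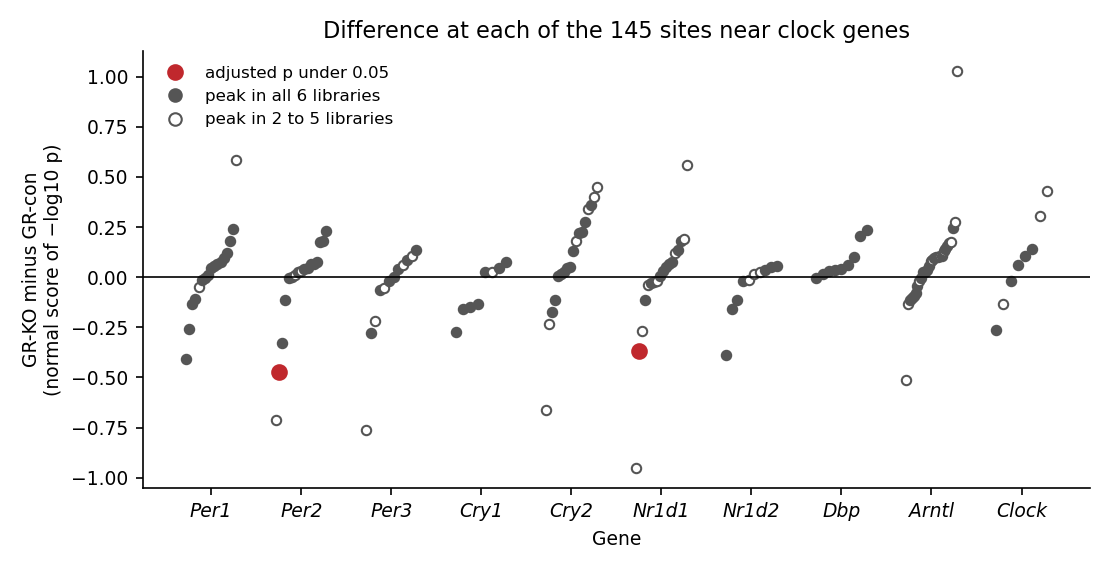
Difference in the normal score of −log10 p (GR-KO minus GR-con, vertical axis) at each of the 145 sites, grouped by gene and sorted within a gene. Filled points had a peak in all 6 libraries and open points in 2 to 5; the 2 red points, in Per2 and near Nr1d1, passed an adjusted p of 0.05, and the points farthest from 0 are mostly open.

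The 2 conditions did not overlap in −log10 p rank at 10 sites lower in GR-KO (6.90% of the sites near clock genes, 8.46% of all sites) and at 15 higher (10.3%, against 11.0% of all sites). In fold rank the same held for 9 lower sites (6.21%, against 7.58%) and 21 higher sites (14.5%, against 11.6%). These shares lie near those of the whole genome. A peak was found in all 6 libraries at 106 of the 145 sites (73.1%, against 62.0% of all sites). A single site had a peak in every GR-con and no GR-KO library, where 1.15% of all sites did, and 0 sites showed the reverse, where 0.622% did. The 39 sites that were not found in every library had a median −log10 p of 6.60 and a highest of 52.8.

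The Period genes encode the clock's repressors, and Per2 held the clearest difference by −log10 p. The site lies in an intron of Per2, 22846 bp from the start of the gene (chr1:91436278-91436678), and carries the paired GR motif shown above. Its −log10 p was 253, 234 and 195 in GR-con and 107, 103 and 92.9 in GR-KO. All 3 GR-KO libraries lay below all 3 GR-con libraries, and the difference in score was −0.47 ± 0.06 (SE, n = 3 per condition, limma, adjusted p = 0.000204). Summit coverage was 295, 273 and 242 reads in GR-con and 132, 125 and 114 in GR-KO. Scaled by each library's median, GR-KO coverage was 50.2% of GR-con, a log2 difference of −0.99 ± 0.12 (limma, adjusted p = 5.74e-10). In pooled nuclei, a lower signal in every nucleus and a loss in a share of them cannot be told apart.

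By fold, the same Per2 site differed less. The fold over local background was 17.1, 17.0 and 14.9 in GR-con and 14.3, 14.4 and 14.0 in GR-KO, again without overlap, but the difference in score was −0.17 ± 0.06 (limma, adjusted p = 0.32). The local background against which the caller set the peak was itself lower, at 16.3, 15.2 and 15.3 reads in GR-con and 8.33, 7.74 and 7.21 in GR-KO. Fold is a ratio over this background, so with both coverage and background lower it fell less than coverage. Fold and −log10 p are therefore not independent measures of the site. A weak site 658 bp away had −log10 p of 11.3, 11.5 and 10.3 in GR-con, and in GR-KO 5.46, no peak and 3.22 (limma, adjusted p = 0.298).

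A further Per2 intron site, 12974 bp from the start, had −log10 p of 38.9, 41.9 and 39.5 in GR-con and 24.5, 15.1 and 16.0 in GR-KO. The conditions did not overlap, yet the ranks missed the threshold (limma, adjusted p = 0.168). Its summit coverage was 59, 63 and 65 reads in GR-con against 40, 29 and 30 in GR-KO, and after median scaling this did pass, at 57.4% of GR-con (limma, adjusted p = 0.0158). The other Per2 sites did not pass by any of these measures, and the Per2 promoter, at 511, 514 and 428 in GR-con and 531, 467 and 491 in GR-KO, overlapped between conditions.

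**Figure D2:**
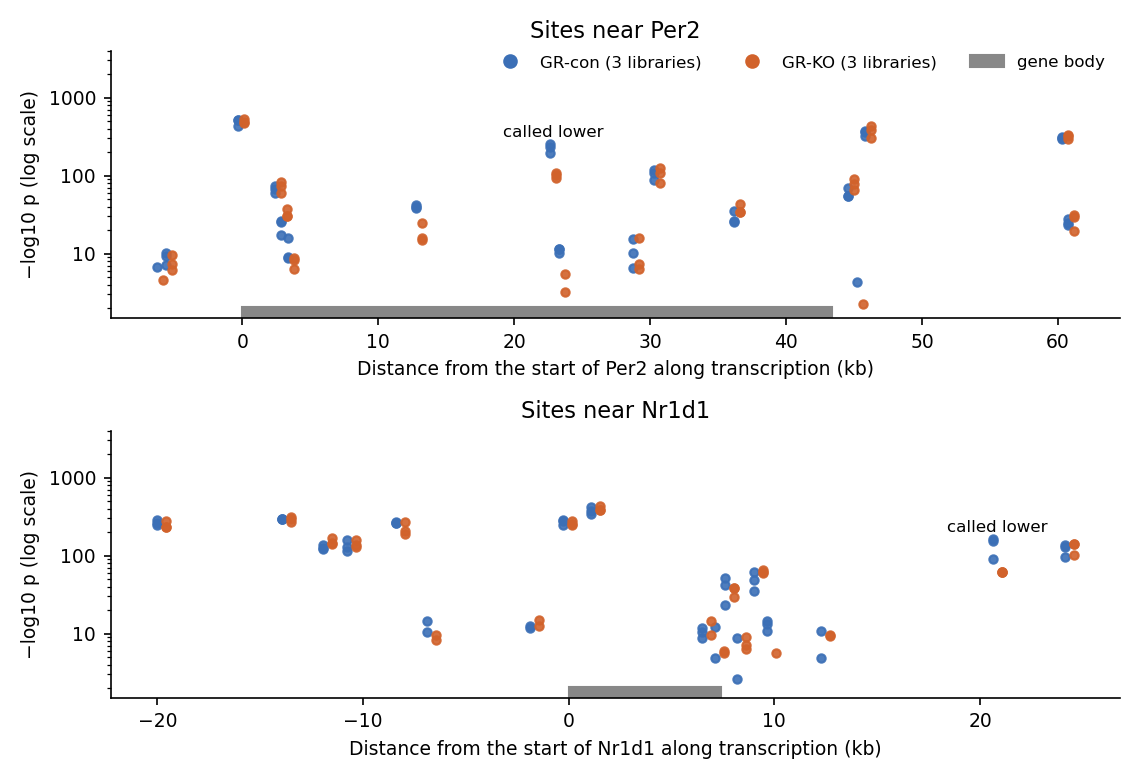
−log10 p (vertical axis, log scale) of every peak at the sites near Per2 (top) and Nr1d1 (bottom) against distance from the gene's start in kb, with the 2 conditions drawn slightly apart and 1 point per library. The sites called lower lie 22846 bp into Per2 and 20839 bp from the start of Nr1d1, beyond its end, while the points of the 2 conditions lie together at both gene starts.

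Per1, a Period gene known to respond quickly to hormones and light, had a GR motif in an intron, 1943 bp from the start of the gene. The −log10 p there was 258, 269 and 260 in GR-con and 245, 228 and 192 in GR-KO. GR-KO lay lower in all 3 libraries, but the score difference was −0.11 ± 0.06 (limma, adjusted p = 0.438) and coverage, at 604, 652 and 605 reads against 564, 545 and 494, stood at 94.2% of GR-con after median scaling and at 88.2% after background scaling. With the fold of this site at 6.07, 5.83 and 6.10 in GR-con and 6.19, 5.90 and 5.44 in GR-KO, the conditions overlapped. The same Per1 window also held a CRE, TGACGTCA, the motif of the factor CREB.

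Among the other 16 Per1 sites none passed. Of all 17, 13 lay nearer the start of another gene than that of Per1. The lowest adjusted p by −log10 p was 0.19 (limma), at a site downstream of Per1. It lay 15293 bp from the Per1 start and 9894 bp from that of Hes7. Its −log10 p was 44.5, 32.8 and 36.5 in GR-con and 49.7, 70.5 and 50.4 in GR-KO, so that GR-KO was the higher. In Per3, whose product is the least essential Period protein for rhythms, the intron site with a GR motif was weak, with −log10 p of 19.1, 14.9 and 20.7 in GR-con and 13.1, 9.65 and 6.87 in GR-KO (limma, adjusted p = 0.523). This site lies 1109 bp from the Per3 start. The lowest adjusted p by the rank of −log10 p near Per3, 0.486, belonged to a site in an untranslated exon 417 bp from the start, called in GR-con 1 and 3 at 52.8 and 37.1 and in GR-KO 2 at 14.4. The strongest site near any clock gene lay 13412 bp upstream of Per3 and 124 bp from the start of Vamp3, with a −log10 p of up to 778.

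The cryptochromes CRY1 and CRY2 join the PER proteins in the repressor complex. The site of smallest p near Cry1 lay 19602 bp upstream (chr10:85204466-85204866). Its −log10 p was 76.5, 72.5 and 79.3 in GR-con and 43.3, 44.7 and 32.3 in GR-KO, and its fold was 16.1, 15.4 and 15.4 against 10.7, 11.2 and 8.98. Neither measure overlapped between conditions, but both missed the threshold, with score differences of −0.27 ± 0.07 (limma, adjusted p = 0.0802) and −0.44 ± 0.07 (limma, adjusted p = 0.0622). Coverage was 84, 81 and 90 reads in GR-con and 58, 58 and 47 in GR-KO. Scaled by the median it was 69.7% of GR-con (limma, adjusted p = 0.0719), and scaled by each library's background 65.3% (limma, adjusted p = 0.0338). The log2 of the deposited values, compared without ranking, also called it lower, by −log10 p (limma, adjusted p = 0.0135) and by fold (limma, adjusted p = 0.0406). No GR motif of the searched form was in its window.

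The GR motif counted for Cry1 sits at the start of the neighbouring gene Mterf2, which encodes a mitochondrial transcription factor, 56997 bp from the Cry1 start. There −log10 p was 456, 406 and 467 in GR-con and 462, 477 and 459 in GR-KO, and the conditions overlapped (limma, adjusted p = 0.901). Near Cry2, the site with a peak in every GR-con and no GR-KO library was weak, at −log10 p of 3.53, 5.47 and 7.22, where the lists begin at 2. It lay 880 bp from the start of Mapk8ip1 and 42192 bp from that of Cry2. The lowest adjusted p by −log10 p near Cry2, 0.331, was that of its promoter.

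**Figure D3:**
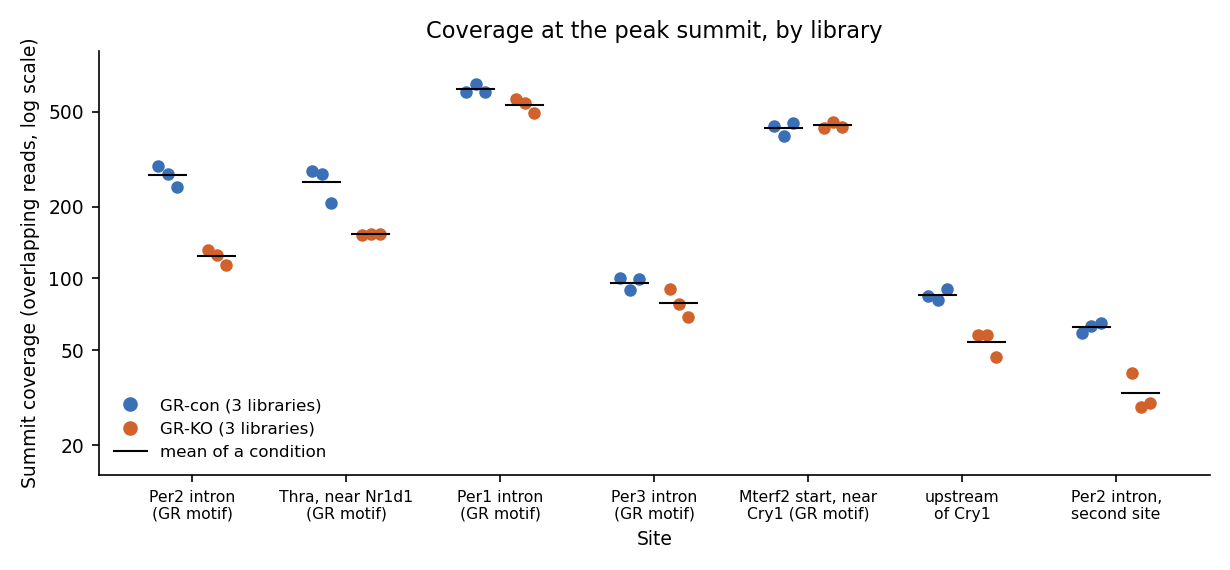
Summit coverage in reads (vertical axis, log scale) for each of the 6 libraries at the 5 sites with a GR motif, at the site upstream of Cry1 and at the second Per2 intron site; black lines are means of 3 libraries. The conditions are far apart at the Per2 intron (242 to 295 against 114 to 132) and at the Thra site near Nr1d1 (207 to 281 against 152 to 154), and overlap at the Mterf2 start near Cry1.

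The second called site belonged to the set of Nr1d1, the gene of the repressor REV-ERBα. It lies inside the neighbouring gene Thra, which encodes thyroid hormone receptor α and overlaps Nr1d1 tail to tail, outside its exons and 908 bp from a Thra start (chr11:98754294-98754694). From the Nr1d1 start the distance is 20839 bp. The −log10 p was 161, 152 and 90.0 in GR-con and 61.7, 62.3 and 61.6 in GR-KO. The conditions did not overlap, with GR-con 3 the lowest of its group, and the score difference was −0.37 ± 0.08 (limma, adjusted p = 0.0203). Coverage was 281, 275 and 207 reads against 152, 154 and 154, which is 66.6% of GR-con after median scaling (limma, adjusted p = 0.000249). The fold was 8.65, 8.26 and 5.98 against 5.44, 5.43 and 5.36 and did not pass (limma, adjusted p = 0.389).

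This call was less stable than that of Per2. It was lost without any single library other than GR-con 3, with an adjusted p of 0.11 to 0.228, whereas that of the Per2 site stayed between 0.00406 and 0.0332 whichever library was left out. It was also lost with peaks assigned by overlap (adjusted p = 0.259), and both calls were lost without limma's variance trend (adjusted p = 0.331 for the Thra site and 0.0765 for the Per2 site). Other sites near Nr1d1 did not pass. The Nr1d1 promoter had −log10 p of 248, 288 and 281 in GR-con and 249, 250 and 281 in GR-KO, and an intron site 1313 bp from the start had 424, 375 and 338 against 429, 382 and 387. For Nr1d2, which encodes the related repressor REV-ERBβ, none of the 10 sites was separated between conditions by either rank. Its site of smallest p lay in an intron 638 bp from the start, with −log10 p of 321, 363 and 304 against 283, 316 and 262 (limma, adjusted p = 0.453), in a window with 2 E-boxes and a D-box.

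Dbp encodes an output factor of the clock, and its 9 sites were all found in all 6 libraries. The largest differences there were upward. A site 17199 bp from the Dbp start, and 1075 bp from that of Fam83e, had −log10 p of 90.0, 103 and 85.8 in GR-con and 152, 119 and 106 in GR-KO, without overlap but short of the threshold (limma, adjusted p = 0.139). A Dbp intron site 995 bp from the start had 46.7, 45.4 and 31.6 against 54.4, 72.3 and 54.0 (limma, adjusted p = 0.203). By median-scaled coverage both passed, at 133% (limma, adjusted p = 0.00877) and 130% (limma, adjusted p = 0.0157) of GR-con, and by background-scaled coverage neither did (limma, adjusted p = 0.118 and 0.18).

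Arntl and Clock encode the activators. Arntl had the most sites, 28, of which 24 were intronic, and 0 passed. Its site of smallest p, in an intron 8015 bp from the start, had no peak in GR-con 1 and 2 and −log10 p of 11.1 in GR-con 3, against 9.43, 20.7 and 16.9 in GR-KO. Clock, with 8 sites in a gene of 94.9 kb, had its smallest p at an intron site with −log10 p of 20.6, 36.7 and 10.7 against 7.12, 18.8 and 8.81, where the conditions overlapped (limma, adjusted p = 0.594).

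The choice of scaling changed the direction in which coverage calls fell. Over the 106 sites with a peak in every library, 3 were lower in GR-KO (both Per2 intron sites and the Thra site) and 3 higher (both Dbp sites and the Per3 promoter) when coverage was scaled by the median, where 2.62% of all sites were lower and 4.68% higher. When it was scaled by background, 4 were lower, the fourth being the site upstream of Cry1, and 0 higher, where 3.93% and 1.97% of all sites were. The 3 lower calls held under both.

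For each gene, the promoter site was that of highest mean fold score among its sites within 500 bp of a transcript start. Near the 10 genes 16 sites met that distance. All 10 chosen promoter sites carried a strong peak in all 6 libraries, which follows in part from this choice, and 0 of 10 differed by either rank. The promoter sites of the genome given beside them were all sites within 500 bp of a start, without such a choice. Of all promoter sites in the genome, 0.306% were lower in GR-KO and 0.246% higher by −log10 p, and 0.0417% lower and 0.00927% higher by fold. In order of mean −log10 p over the libraries they were Cry2 (517), Per2 (490), Nr1d2 (447), Per3 (446), Cry1 (436), Dbp (358), Per1 (349), Arntl (326), Clock (311) and Nr1d1 (266). The ranges of neighbours in this order overlapped in 8 of 9 pairs. The exception was between Cry1, with 408 to 473, and Dbp, with 297 to 406. The order is that of −log10 p, which falls as the local background rises, and Dbp and Per1, with backgrounds near 93.0 and 101 reads in GR-con, had summit coverages (619 to 755 and 646 to 729 reads) as high as those of Cry2 (614 to 705).

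**Figure D4:**
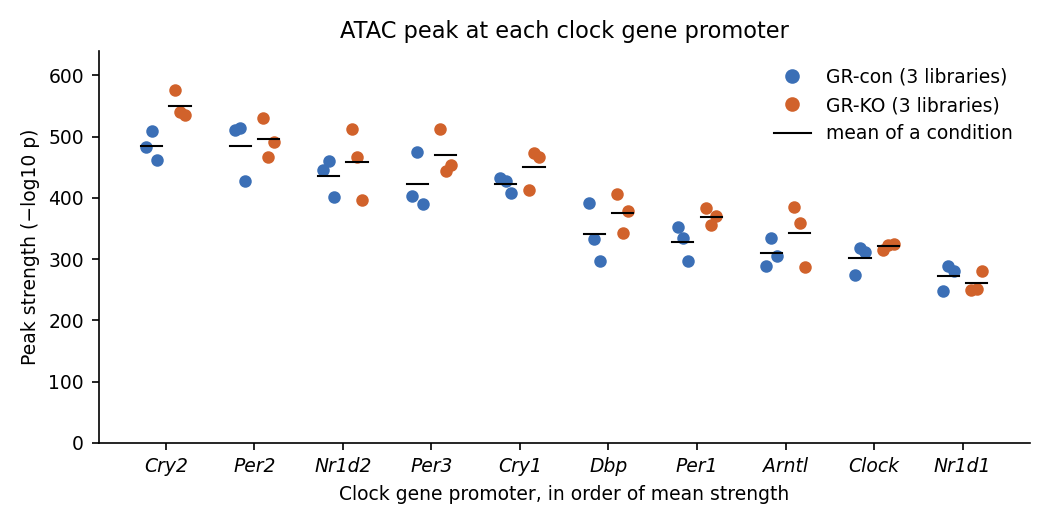
−log10 p of the promoter peak of each clock gene (vertical axis) in each library, with a black line at the mean of each condition, genes in order of mean strength. The conditions overlap at most promoters, and 0 of 10 passed an adjusted p of 0.05.

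By the rank of −log10 p, GR-KO lay above GR-con in all libraries at 2 of the 10 promoters, Cry2 and Per1, where 7.82% of all promoter sites did, and below at 0, where 6.26% did. By the rank of fold, GR-KO lay above at 3, Cry2, Per1 and Clock, where 13.2% of all promoter sites did, and below at 0, where 3.85% did. The Cry2 promoter had −log10 p of 483, 509 and 461 in GR-con and 576, 540 and 535 in GR-KO (limma, adjusted p = 0.331). For Per1 the values were 352, 335 and 296 against 383, 355 and 370 (limma, adjusted p = 0.437). At the Per3 promoter, with 402, 474 and 389 against 512, 443 and 454, the ranks overlapped (limma, adjusted p = 0.507), while its median-scaled coverage was 120% of GR-con (limma, adjusted p = 0.0469). After background scaling its coverage was 112% of GR-con and did not pass (limma, adjusted p = 0.48).

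The motifs through which the clock factors act were present at promoters and elsewhere. The E-box, CACGTG, was in 10 of the 145 windows (6.90%, against 4.81% of all sites), the D-box, TTATGNAA, in 12 (8.28%, against 3.81%), the RORE, spelled A, 2 bases, TNGGTCA, in 11 (7.59%, against 3.65%) and the CRE in 4 (2.76%, against 0.638%). Both strands were searched. Over all promoter sites of the genome the shares were 8.22% for the E-box, 1.53% for the D-box, 1.73% for the RORE and 2.36% for the CRE. The CRE sites included those at the starts of the neighbouring genes Vamp3 and Sphk2. Of the 10 promoters, those of Per1 and Cry1 held an E-box, those of Per2 and Per3 a D-box and that of Dbp a RORE. By number of sites, Nr1d1 had the most with an E-box, 3, and Clock the most with a RORE, also 3. The NFI motif, TTGGC, 5 bases, GCCAA, was at 0 of 145 sites and at 0.0715% of all sites.
Per1 promoter upstream of the first exon, plus strand, E-box in capitals, chr11:69094975-69095216: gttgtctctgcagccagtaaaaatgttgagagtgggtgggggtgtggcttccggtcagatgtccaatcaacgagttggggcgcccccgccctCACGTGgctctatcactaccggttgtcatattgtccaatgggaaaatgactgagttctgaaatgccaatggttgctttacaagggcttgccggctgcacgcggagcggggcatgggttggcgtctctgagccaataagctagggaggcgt
Per2 promoter upstream of the first exon, minus strand, D-box in capitals, chr1:91459325-91459571: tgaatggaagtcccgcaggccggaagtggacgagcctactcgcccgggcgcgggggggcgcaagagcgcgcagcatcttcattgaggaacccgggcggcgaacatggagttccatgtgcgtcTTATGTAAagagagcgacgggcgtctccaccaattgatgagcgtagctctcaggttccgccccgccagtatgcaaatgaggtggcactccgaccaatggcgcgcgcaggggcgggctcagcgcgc

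By −log10 p, 0 of the 10 E-box, 12 D-box, 11 RORE and 4 CRE sites (32 sites in all, as some held more than 1 motif) were called, with median score differences of 0.02, 0.04, −0.02 and 0.02. At the shares of all sites called, 0.839% lower and 0.764% higher, so few sites would hold less than 1 call, and nothing is read from these counts. By median-scaled coverage 1 of the 32 was called, the Per3 promoter with its D-box, which was higher as given above, and by background-scaled coverage 0 were. Of the 5 sites with a GR motif, 2 were lower and 0 higher. In the genome, 1318 sites held the GR motif, of which 19.4% were lower in GR-KO by −log10 p, 0.0% higher, and 3.57% lower and 0.228% higher by fold.

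The list of 24 further clock genes, regulators and outputs of the loops, had 513 sites. By −log10 p, 7 were lower (1.36%, against 0.839% of all sites) and 3 higher (0.585%, against 0.764%) in GR-KO. By fold, 1 was lower (0.195%, against 0.127%) and 1 higher (0.195%, against 0.0615%). These shares lie near those of the whole genome, so the sites described next are single sites and say nothing of the list. The list held 11 sites with a GR motif, of which 4 were among the 7 lower sites, and the other 3 lower sites, 2 of Rora and 1 of Csnk1d, had no match. Usp2, which encodes a rhythmic deubiquitinase that acts on clock proteins, had a site 12091 bp from its start with a GR motif and −log10 p of 243, 274 and 168 in GR-con and 84.0, 80.8 and 101 in GR-KO (limma, adjusted p = 0.000456). Tef, a relative of Dbp, had a GR-motif site 37408 bp from its start with 392, 382 and 340 against 219, 190 and 201 (limma, adjusted p = 0.000199). At both, every GR-KO library lay below every GR-con library.

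Rora and Rorb encode receptors that activate Arntl through the RORE. Rora had 3 lower sites of 149, of which the one 26384 bp from its start had −log10 p of 353, 421 and 271 against 179, 170 and 158 (limma, adjusted p = 0.000831) and held a GR motif. The other lower Rora sites, without a motif match, lay 287476 bp from the start, with 436, 351 and 272 against 166, 184 and 136 (limma, adjusted p = 0.00117), and 678291 bp from the start, with 19.9, 37.5 and 17.7 in GR-con and a peak of 3.60 in GR-KO 2 alone (limma, adjusted p = 0.0167). Rorb had 2 higher sites of 57, with 18.4, 17.9 and 19.6 against 73.6, 54.4 and 42.8 at the one 152940 bp from its start (limma, adjusted p = 0.0039). Npas2, a paralogue of Clock, had 1 higher site of 41, at 6.44, 6.03 and 4.30 against 29.3, 37.0 and 27.4 (limma, adjusted p = 0.00653). Near Fbxw11, which encodes an F-box protein that takes part in the turnover of PER proteins, a GR-motif site 19347 bp upstream fell from 113, 117 and 88.5 to 11.5, 6.70 and 11.6 (limma, adjusted p = 1.28e-05) and was also lower by fold (limma, adjusted p = 0.0286). A further Fbxw11 site, 16843 bp upstream and without a motif match, was the one site of the list called higher by fold, at 12.9, 11.6 and 11.9 in GR-con and just above 21 in each of the 3 GR-KO libraries (limma, adjusted p = 0.0118). Its −log10 p missed the threshold (limma, adjusted p = 0.0853), and its coverage overlapped, at 148, 138 and 123 reads against 143, 128 and 140. Scaled by the median, coverage did not pass (limma, adjusted p = 0.599). Fold is a ratio over local background, so at like coverage a higher fold means a lower background. The lower site of Csnk1d, the gene of a kinase of PER proteins, lay 457 bp from its start and had unequal GR-KO libraries, with 214, 219 and 179 against 9.05, 29.5 and 155 (limma, adjusted p = 0.0308). The other 17 genes of the list had no site called by either rank.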

How the data were processed

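ATAC-seq peak lists of 6 libraries were used, with groups and replicate numbers from the labels. Reads were taken by the authors through ENCODE's pipeline for ATAC-seq, at default parameters by the study's methods, while its reporting summary names automatic adapter detection, multimapping at 0 and a p threshold of 0.01, and each deposited list holds the peaks of 1 library. For each peak they give the fold, a ratio over local background, and −log10 p and −log10 q. The build in the submitters' processing notes is mm10, and 0 summits lay beyond a chromosome end of that assembly. The lists hold no read counts, so library depth is unknown and the DiffBind test of the study was not run.

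Between 44.1% and 51.0% of the peaks in a list shared an interval with another summit, so a peak was assigned to a site by its summit. Sites of 401 bp were taken in order of the within-list percentile of −log10 p without overlap, and at each site the strongest summit of a library was used. Ranks became normal scores, with missing peaks tied lowest, and were fitted with limma 3.58.1 (R 4.3.3) with a variance trend. Summit coverage and local background were solved from the deposited fold and −log10 p with a Poisson upper tail. Coverage came out whole (within 0.05) for 100% of peaks at sites, and background levels of the libraries were 4.28 to 4.92. It was compared at the 99768 sites with a peak in all 6 libraries. Genes were from GENCODE. Python 3.11.15, numpy 2.4.6, scipy 1.17.1, pandas 2.3.3, pysam 0.24.0 and matplotlib 3.10.9 were used. The fit was tested on simulated data.

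Sites named were the promoter (centre within 500 bp of a transcript start, the one of highest mean fold score), those called, those in every library of 1 condition only, those with a GR motif and the site of smallest p for each gene. Other sites were named after their values were seen. The genes, motifs and lists were chosen with earlier results of these data known. Alternatives were a q-value limit, equal list lengths, peaks assigned by overlap, other flanks, thresholds and scalings, a block for the replicate number, and omission of each library in turn. An exact permutation test of 3 against 3 cannot go below 0.1, so none was used for single sites.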

Additional observations from a re-analysis of the deposited data

How the results depend on the processing

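With a q-value limit, equal list lengths, sites in at least 3 libraries or sites in all 6 libraries, 2 sites were lower by −log10 p and 0 higher, as before, and 0 passed by fold. The count lower by −log10 p was 1 with peaks assigned by overlap, a 10 kb flank, gene bodies only (69 sites), an adjusted p under 0.01 or the replicate block, and 0 without the variance trend. It was 1 to 2 with each library left out. Summit coverage, compared in place of either rank, called 3 sites lower and 3 higher after division by the median, and 4 lower after division by the background. The log2 of the deposited values gave 1 lower by fold and 4 lower by −log10 p. The count of sites present in all GR-con and absent from all GR-KO libraries was 0 under the q-value limit, the 10 kb flank and gene bodies only, 3 with assignment by overlap, and 1 to 2 with each library left out, and the reverse 0 to 1. Replicate numbers did not pair the libraries (correlations of same-numbered deviations of −0.00719 to 0.0306), and with the replicate block the adjusted p of the Thra site was 0.0638.

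Alternatives were tabulated for the sites named by the rule, and among these the differences that changed sign had not passed; unnamed sites can change sign too. For fold the named ones were the Per1 intron site (−0.086 and −0.18 by median- and background-scaled coverage, −0.041 by log2, −0.016 to 0.042 with each library left out), the Per3 exon site (0.070 by overlap), the Nr1d1 promoter (−0.050 by log2, −0.038 to 0.044), the Nr1d2 intron site (0.049 by overlap, 0.024 by median-scaled coverage) and the Nr1d2 promoter (−0.0033 to 0.071). For −log10 p they were the Per2 promoter (−0.070 to 0.053), the Mterf2 site (−0.047 to 0.13), the Per3 exon site (0.16 by overlap), the Nr1d1 promoter (0.10 and 0.0062 by coverage, −0.065 to 0.0039), the Nr1d2 intron site (0.064 by overlap, 0.024 by median-scaled coverage) and the Nr1d2 promoter (−0.0064 to 0.12). The cause of these changes was not tested. Library depth is unknown from the lists, so −log10 p and coverage could be set side by side only after ranking or scaling within a library.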
